A study of Homo sapiens with 39 samples.

Results

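The 10 genes described here encode members of the BCL2 family, which decides whether the mitochondrial pathway of apoptosis is switched on. They were chosen by gene symbol from the table of gene levels, and all 10 were found among its 60671 gene identifiers. Their levels were measured by RNA-seq of poly-A selected RNA in 39 libraries of the human melanoma cell lines A375 and WM115. In each line, unedited cells (WT) were set beside clones that carry a deletion of region R1 or of region R4 of an enhancer of SOX10, the transcription factor that specifies the melanocyte lineage.

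The A375 groups were WT with 4 libraries, R1 clone 1.1 with 3, R1 clone 1.2 with 4, R4 clone 4.1 with 4 and R4 clone 4.2 with 3. The WM115 groups were WT with 4 libraries, R1 clone 1.1 with 5, R1 clone 1.2 with 3, R4 clone 4.1 with 3 and R4 clone 4.2 with 3. WM115 clone 1.3, with 3 libraries, was kept as a group of its own because its title places it with R1 and its genotype label with R4. The library names of WM115 WT carry the tag wt5. No treatment was named for any group. Each edited group is 1 clone, so its libraries repeat that clone and not the deletion. Nothing in the labels says that libraries of a group came from separate cultures, so p-values measure only the spread between these libraries, which may be technical.

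Pro-survival members of the family (MCL1, BCL2L1, BCL2L2, BCL2A1 and BCL2 here) bind and hold back the proteins that permeabilise the outer mitochondrial membrane. BAX is one of those effectors. BH3-only proteins (BBC3, also called PUMA, PMAIP1, also called NOXA, BCL2L11, also called BIM, and BMF) are induced by stress and neutralise the pro-survival members or activate the effectors. Melanomas are known for their reliance on MCL1 and BCL2L1, and BCL2A1 is a known target gene both of MITF, the master regulator of pigment cells, and of NF-kB. The proteins are also controlled after transcription, which RNA levels do not show.

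Levels are given as TPM, transcript abundance corrected for length and scaled to the same total in each library, so that genes can be compared with each other. The deposited values hold no read counts, the depth of each library is therefore unknown, and no counting interval can be given. Between 14084 and 16140 genes per library reached 1 TPM. SOX10 was measured at 381 to 876 TPM in A375 and at 9.56 to 553 TPM in WM115. It was lower than WT by the test in clone 1.2 of A375 (log2 difference -0.62, adjusted p = 0.0135, limma) and in clone 1.2 of WM115 (-2.44, adjusted p = 0.0192, limma), and in no other clone. The value of WM115 clone 1.2 includes its library 3, at 9.56 TPM, and SOX10 was not read without that library. In A375, the pigment genes TYR, MLANA, TYRP1 and DCT stayed under 1 TPM in all 18 libraries, while SOX10, MITF and S100B were at 1 TPM or more in each of them. Markers of other cell types were read as sums over their lists. The leukocyte list summed to 1.41 to 12.7 TPM in A375, mostly LYZ (up to 12.3 TPM), and to 0.067 to 1.23 TPM in WM115, while PTPRC, which defines leukocytes, reached at most 0.137 and 0.483 TPM. The keratinocyte list summed to 55.9 to 114 TPM in A375, where KRT14 reached 30.4 TPM, and to 38.8 to 79.2 TPM in WM115. Most of it was KRT10, at 40.0 to 98.4 TPM in A375 and 38.8 to 76.7 TPM in WM115. In WM115, KRT14 reached 3.65 TPM, KRT1 0.022 TPM and KRT5 0 TPM. The fibroblast list summed to 1.72 to 14.3 TPM in A375 and to 371 to 862 TPM in WM115, where COL1A2 alone was 365 to 857 TPM, and the endothelial list to at most 2.88 and 16.3 TPM. The fibroblast sum was higher in every library of A375 clone 1.2 (10.1 to 14.3 TPM) than in WT (3.01 to 6.53 TPM). The keratinocyte sum, mostly KRT10, was higher in every library of WM115 clones 4.1 (57.4 to 72.3 TPM) and 4.2 (59.8 to 79.2 TPM) than in WT (40.3 to 56.4 TPM). The part of these markers in the results for the members was not tested. The share of mitochondrially encoded transcripts was 0.968% to 4.92% per A375 library and 4.71% to 19.4% per WM115 library. WM115 WT libraries held 13.7% to 15.6%, and its clone libraries 4.71% to 14.4%, apart from 1.3 library 3 with 19.4%. In WM115, ribosomal protein transcripts took 11.1% to 12.8% in WT and 15.1% to 17.4% in the clones, apart from 1.3 library 3 with 10.6%. Libraries were split into sets above and below a mitochondrial share of 2.5% in A375 and 7.5% in WM115. Within the larger set of each line, calls of members against WT described below numbered 0 in place of 3 in A375. In WM115 they numbered 1 in place of 8. WM115 clone 4.1 had too few libraries in that set, so its tests are missing from the count of 1. These fits hold fewer libraries, and the share of all genes called in them was not counted. The part of the ribosomal share in the differences from WT was not tested.

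Libraries that stood apart touch several results. In WM115 clone 1.2, library 3 held SOX10 at 9.56 TPM and a summed level of the 8 melanocytic markers of 29.4 TPM, against 643 and 936 TPM in the other libraries of that clone. The second libraries of A375 WT and A375 clone 4.1 had the highest ribosomal shares of that line, 25.5% and 26.0%.

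In unedited A375 cells, MCL1 had the highest mean level of the 10 genes, 178 ± 33.7 TPM (SD, n = 4), followed by BAX with 130 ± 37.7 TPM. BCL2L1 (BCL-XL) stood at 31.3 ± 12.5 TPM, PMAIP1 at 16.3 ± 3.18 TPM, BCL2L2 (BCL-W) at 11.4 ± 1.08 TPM and BBC3 at 9.31 ± 4.72 TPM. BCL2L11, BCL2A1, BMF and BCL2 closed the order with means of 5.11, 4.47, 2.76 and 1.79 TPM. The libraries of neighbours in this order overlapped, apart from BAX and BCL2L1, BCL2L1 and PMAIP1, and PMAIP1 and BCL2L2. BCL2, the gene that gave the family its name, was therefore the least abundant of the 10 by mean, within the spread of BMF.

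Unedited WM115 cells had BAX first, at 171 ± 19.2 TPM (SD, n = 4), and MCL1 next, at 134 ± 26.0 TPM. The following means were 35.2 TPM for BCL2L1, 33.2 for BCL2L2, 27.0 for BBC3, 12.4 for PMAIP1, 9.88 for BCL2A1, 5.66 for BCL2L11, 4.76 for BMF and 2.95 for BCL2. Here only MCL1 and BCL2L1, and BBC3 and PMAIP1, were neighbours whose libraries did not overlap. BCL2 again had the lowest mean.

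Of the 10 genes, 3 were higher in WM115 WT than in A375 WT at an adjusted p under 0.05, and none was lower. Among all genes tested, 47.9% passed that threshold between the lines, 26.3% higher in WM115 and 21.6% lower. BCL2L2 was 29.05 to 41.8 TPM in WM115 and 10.1 to 12.7 TPM in A375, a log2 difference of 1.45 (SE 0.15, adjusted p = 4.63e-05, limma). BBC3, a p53 target gene, was 16.8 to 34.8 TPM in WM115 and 6.42 to 16.4 TPM in A375, a difference of 1.49 (SE 0.30, adjusted p = 0.00272, limma). Neither gene's libraries overlapped between the lines, which held for 2 of the 10 members and for 43.9% of all genes. BCL2A1 was higher by 0.95 (SE 0.30, adjusted p = 0.0264, limma), with overlapping libraries, and lost the call when any of A375 WT library 1 or WM115 WT libraries 1, 2 and 4 was left out (adjusted p = 0.0625 to 0.0779).

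**Figure D1:**
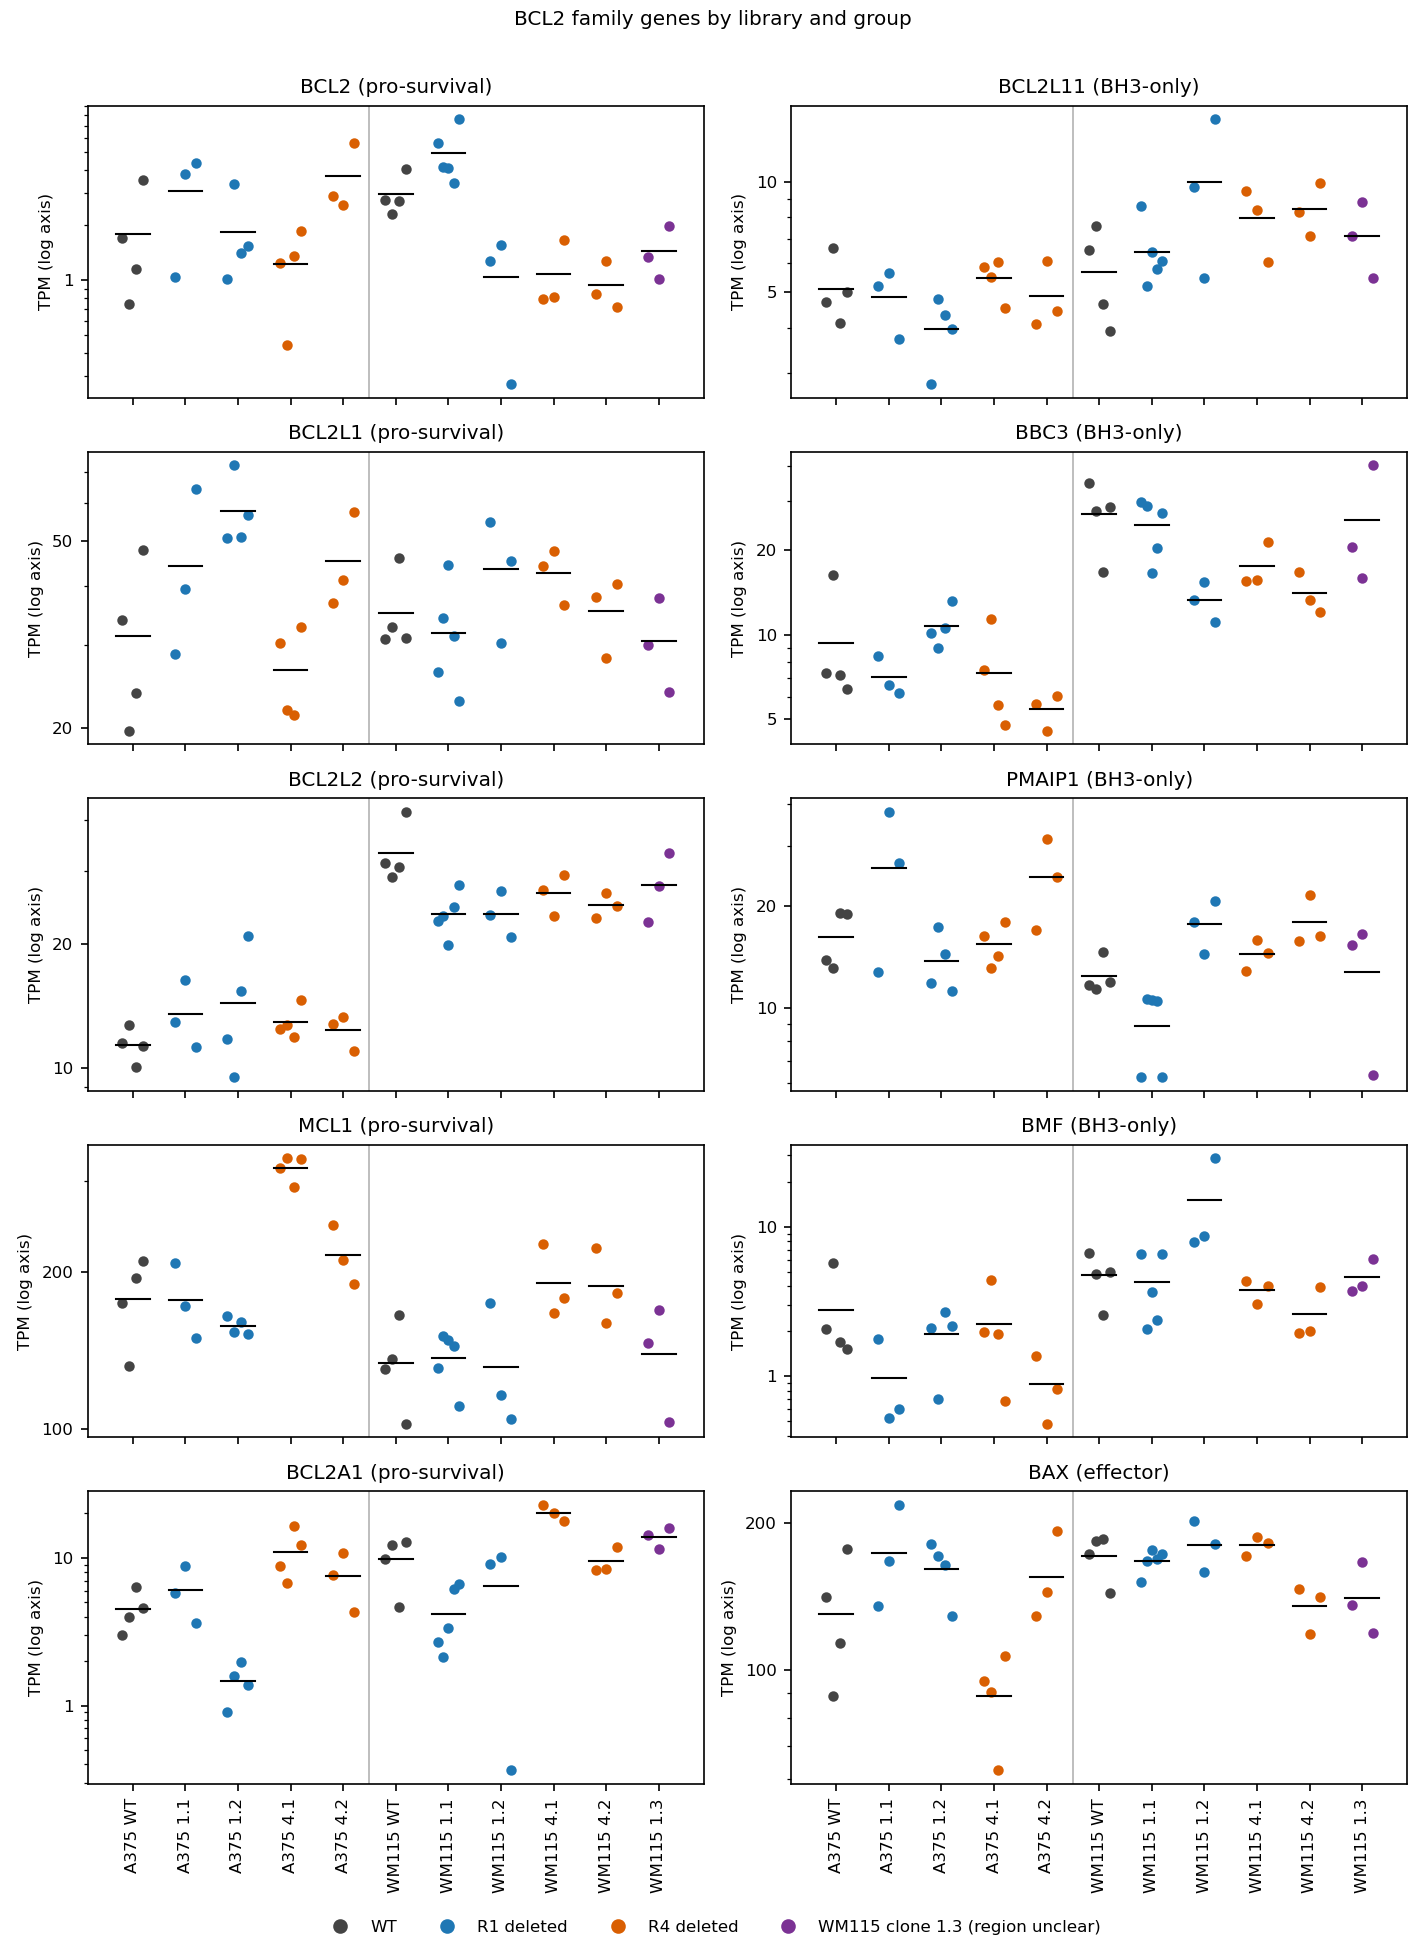
Level of each of the 10 genes in every library, as TPM on a log axis, by line and clone (points: libraries; bars: group means; grey WT, blue R1, orange R4, purple WM115 clone 1.3). MCL1 of A375 clone 4.1 lies at 292 to 331 TPM above all other A375 libraries, and BCL2 of WM115 clone 1.2 reaches down to 0.270 TPM in library 3.

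Each clone was compared with the WT libraries of its line, to ask which BCL2 family genes differ where the enhancer region is missing. All clones of a line share its WT libraries. The fits used log2(TPM + 1), so a difference understates the change of genes near 1 TPM, and all 10 members passed the filter of at least 1 TPM in at least 3 libraries. In A375, 3 of 40 tests passed an adjusted p of 0.05 (limma). They were BCL2L1 and BCL2A1 in clone 1.2, where 8.53% of all genes passed, and MCL1 in clone 4.1, where 1.31% passed. These fits hold no replicate block, though same-numbered libraries of clone 4.1 and WT deviated together. With the replicate number as a block, MCL1, BCL2A1 and BAX passed in clone 4.1 (adjusted p = 0.00388, 0.00235 and 0.0379, limma). The share of all genes called with the block was not counted. No member passed in A375 clone 1.1, with 1.04% of all genes called, or in clone 4.2, with 0.557% called. At an unadjusted p under 0.05 there were 1 of 10 members in clone 1.1, beside 1679 of 16692 genes, and 2 in clone 4.2, beside 1297.

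In WM115, 8 of 50 tests passed. Clone 1.1 had 1 of 10 members called against 22.0% of all genes, clone 1.2 had 4 against 22.6%, clone 4.1 had 1 against 24.2% and clone 4.2 had 2 against 20.3%. In clone 1.3, 2 members had an unadjusted p under 0.05, beside 2212 of 16997 genes. No member passed there, and 1.06% of all genes were called. The counts of members in clones 1.1, 4.1 and 4.2 were thus at or under the share of all genes. Groups did not overlap with WT for 0, 2, 2 and 2 members in A375 clones 1.1, 1.2, 4.1 and 4.2, against 7.41%, 13.8%, 7.12% and 6.52% of all genes. The same count was 2, 4, 3, 3 and 1 in WM115 clones 1.1, 1.2, 4.1, 4.2 and 1.3, against 23.6%, 28.3%, 36.9%, 32.1% and 11.5% of all genes.

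**Figure D2:**
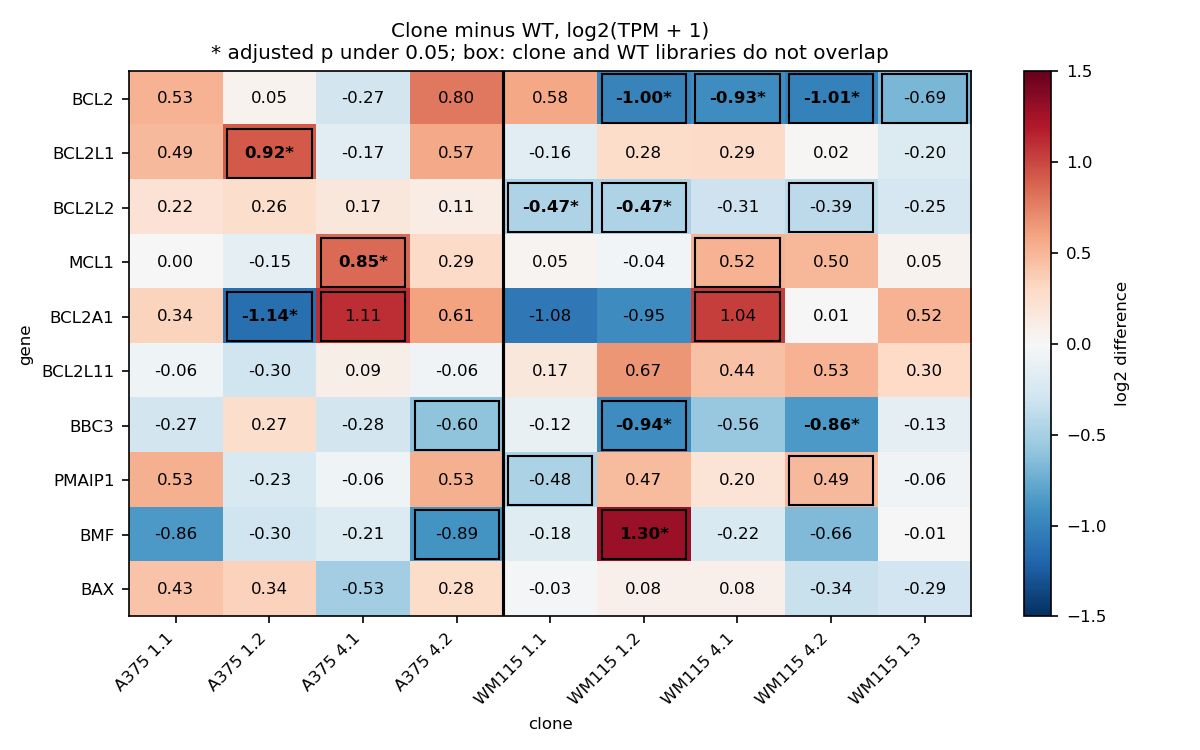
Log2 difference of each gene (vertical) in each clone (horizontal) from WT of the same line, on log2(TPM + 1). Stars mark an adjusted p under 0.05 in the fits without a replicate block, and boxes mark clones whose libraries do not overlap with WT. BCL2 is starred in WM115 clones 1.2, 4.1 and 4.2, at differences of -0.9997, -0.93 and -1.01, and in no A375 clone.

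MCL1, a short-lived pro-survival protein (chromosome 1, 150574551 to 150579738, minus strand, GRCh38), was higher in A375 clone 4.1 than in WT. The libraries of clone 4.1 held 317, 331, 292 and 329 TPM, and those of WT 175, 132, 195 and 209.8 TPM. Every library of the clone lay above every WT library, at a log2 difference of 0.85 (SE 0.14, 95% interval 0.55 to 1.15, adjusted p = 0.0038, limma). It kept the call when any single library was left out and missed the threshold in a fit of only these groups (0.85, adjusted p = 0.0624) and among only the libraries of the larger mitochondrial set (0.94, adjusted p = 0.171). The other R4 clone of A375, 4.2, held 246, 211 and 189.6 TPM and overlapped with WT (difference 0.29, SE 0.15, adjusted p = 0.658, limma). Neither R1 clone of A375 reached the level of clone 4.1: clone 1.1 held 149.7 to 208 TPM and clone 1.2 held 152 to 165 TPM. As in any bulk sample, more cells with a high level and more RNA per cell cannot be told apart.

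In WM115, MCL1 stood at 130.4, 137, 166 and 102 TPM in WT. Clone 4.1 held 227, 167 and 178 TPM, all above WT, and clone 4.2 held 223, 159.85 and 183 TPM, of which the second fell within WT. These differences were 0.52 (SE 0.20, 95% interval 0.09 to 0.94, adjusted p = 0.069) and 0.50 (SE 0.20, 0.08 to 0.92, adjusted p = 0.0866) by limma. Both missed the threshold as deposited and passed it after median-of-ratios scaling, with 0.64 (adjusted p = 0.021) and 0.61 (adjusted p = 0.0307). After quantile normalization clone 4.1 passed (0.52, adjusted p = 0.0401) and clone 4.2 did not. Both clones also passed without WM115 WT library 3 (adjusted p = 0.0359 and 0.0429). The R1 clones and clone 1.3 stood near WT, with differences of 0.05, -0.04 and 0.05 and adjusted p of 0.883, 0.913 and 0.946.

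BCL2A1 (BFL-1; chromosome 15, 79960889 to 79971446, minus strand) lay below WT in some clones and above it in others. The lowest levels were in R1 clones and the highest in R4 clones, A375 1.2 and 4.1 and WM115 1.1 and 4.1 by mean. A375 WT held 2.98, 3.95, 6.35 and 4.59 TPM. R1 clone 1.2 held 0.900, 1.59, 1.96 and 1.38 TPM, all below WT, at a difference of -1.14 (SE 0.30, 95% interval -1.77 to -0.51, adjusted p = 0.0241, limma). The call was lost without WT library 3 or 4 or without clone library 1 or 4 (adjusted p = 0.0538 to 0.0933).

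The A375 R4 clone 4.1 held 8.78, 6.73, 16.3 and 12.3 TPM of BCL2A1, all above WT. The difference was 1.11 (SE 0.30, 95% interval 0.47 to 1.74) and missed the threshold without a block (adjusted p = 0.0896, limma). In this comparison same-numbered libraries deviated together, and with the replicate number as a block the adjusted p of BCL2A1 was 0.00235. With the mitochondrial set as a term it was 0.0177. A375 clone 1.1 (5.77, 8.78 and 3.64 TPM) and clone 4.2 (7.70, 10.7 and 4.30 TPM) overlapped with WT, with adjusted p of 0.741 and 0.658.

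In WM115, BCL2A1 stood at 9.86, 12.3, 4.62 and 12.8 TPM in WT. R4 clone 4.1 held 22.9, 19.9 and 17.8 TPM, all above WT, at a difference of 1.04 (SE 0.52, adjusted p = 0.157, limma). R1 clone 1.1 held 2.68, 2.14, 3.33, 6.15 and 6.69 TPM, at -1.08 (SE 0.46, adjusted p = 0.1, limma), with 2 libraries within WT. Clone 1.2 was split, with 9.02, 10.1 and 0.365 TPM. In the fit without that last library, which stood apart, the differences of clones 4.1 and 1.1 were 1.04 and -1.08 as before and passed, with adjusted p of 0.0193 and 0.00829. Clone 4.2 (8.20, 8.37 and 11.8 TPM) and clone 1.3 (14.2, 11.5 and 15.8 TPM) overlapped with WT.

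MITF, which drives BCL2A1 in pigment cells, was measured beside it. MITF was 22.3 ± 3.30 TPM (SD, n = 4) in A375 WT, 16.5 ± 2.26 in clone 1.2 and 16.6 ± 1.22 in clone 4.1 (n = 4 each). These clones, with the lowest and the highest mean BCL2A1 of A375, differed in MITF by less than either SD. MITF was lower than WT by the test in A375 clones 1.1 (-1.31, adjusted p = 0.00165) and 4.2 (-0.96, adjusted p = 0.0268) by limma. Their BCL2A1 means were 6.06 and 7.56 TPM, beside 4.47 TPM in WT, with overlapping libraries. In WM115, MITF fell from 128 ± 46.4 TPM in WT (n = 4) to 10.5 ± 1.08 TPM in clone 4.1 (n = 3), the clone with the highest BCL2A1, at a log2 difference of -3.40 (adjusted p = 0.000793, limma). The acute-phase gene SAA1, an NF-kB target, stood at 3553 ± 1346 TPM (SD, n = 3) in that clone, at 394 ± 303 TPM in WT (n = 4) and at 1.49 ± 1.25 TPM in WM115 clone 1.1 (n = 5). In WM115 clone 1.2, where BCL2A1 was within WT in 2 of 3 libraries, SAA1 was also lower than in WT, at 8.70 ± 12.1 TPM (n = 3; -5.67, adjusted p = 0.00035, limma). Whether MITF or NF-kB had a part in the level of BCL2A1 was not tested.

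The promoter windows of BCL2A1 and BCL2 are printed because several results turn on these pro-survival genes and their windows differ in makeup. They run from 250 bases before to 50 bases after the start in RefSeq (GRCh38.p14), BCL2A1 at chr15:79971147-79971446 and BCL2 at chr18:63319720-63320019, both on the minus strand. Capitals mark CATGTG, one of the forms of the E-box that MITF is known to bind.
BCL2A1 promoter: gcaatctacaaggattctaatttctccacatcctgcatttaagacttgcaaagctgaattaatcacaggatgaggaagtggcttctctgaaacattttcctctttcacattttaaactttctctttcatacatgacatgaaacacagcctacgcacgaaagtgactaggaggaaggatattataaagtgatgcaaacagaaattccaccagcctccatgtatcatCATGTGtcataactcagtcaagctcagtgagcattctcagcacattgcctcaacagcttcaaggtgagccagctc
BCL2 promoter: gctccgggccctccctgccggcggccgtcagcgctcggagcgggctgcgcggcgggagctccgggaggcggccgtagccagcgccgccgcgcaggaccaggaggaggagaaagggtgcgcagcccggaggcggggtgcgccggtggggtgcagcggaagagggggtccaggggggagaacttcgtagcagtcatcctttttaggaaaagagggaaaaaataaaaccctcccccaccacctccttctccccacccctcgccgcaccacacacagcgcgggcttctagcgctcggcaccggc
The window of BCL2A1 has 41.0% G or C and that of BCL2 70.7%, beside a median of 58.7% over 35116 promoters. Of the 8 members with an entry, only BCL2A1 held CATGTG or its reverse complement, with 1 match starting at -25, and 11.1% of all promoters held it. CACGTG, its own reverse complement, was found in BAX with 4 matches and in BBC3 with 1, and in 7.26% of all promoters. A loose form of the NF-kB motif was found on either strand in 5 of the 8, BCL2 among them with 2 matches, and in 58.67% of all promoters. The SOX motif forms ACAATG and ACAAAG were found in BBC3 and BCL2L1, and in 10.78% and 16.07% of all promoters. TGACTCA, the AP-1 motif, was found in BBC3 and in 4.95% of all. Matches of these motifs did not overlap in the window of BCL2A1 or of BCL2. A match is a run of letters and not a site of binding.

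BCL2, the founding pro-survival gene (chromosome 18, 63123346 to 63320128, minus strand), was lower in 3 WM115 clones. WT held 2.75, 2.31, 2.71 and 4.04 TPM. R4 clone 4.1 held 0.794, 0.810 and 1.66 TPM, at a difference of -0.93 (SE 0.26, 95% interval -1.47 to -0.38, adjusted p = 0.0153, limma). R4 clone 4.2 held 0.847, 1.27 and 0.718 TPM, at -1.01 (SE 0.26, -1.56 to -0.47, adjusted p = 0.011, limma).

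In R1 clone 1.2, BCL2 was 1.28, 1.56 and 0.270 TPM, at -0.9997 (SE 0.26, -1.54 to -0.45, adjusted p = 0.0123, limma). All libraries of these 3 clones lay below all WT libraries. Without library 3 of clone 1.2, the difference there was -0.69 (adjusted p = 0.122). The call in clone 4.1 was lost without WT library 4 or without clone library 1 or 2 (adjusted p = 0.0504 to 0.0708) or with the mitochondrial set as a term (-0.77, adjusted p = 0.0797), and that in clone 4.2 was kept when any single library was left out.

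Clone 1.3 of WM115 also lay below WT in BCL2, with 1.35, 1.02 and 1.98 TPM, but the difference of -0.69 (SE 0.26) had an adjusted p of 0.259. R1 clone 1.1 was on the other side, with 5.63, 4.18, 4.098, 3.41 and 7.64 TPM, at 0.58 (SE 0.23, 95% interval 0.098 to 1.06, adjusted p = 0.0776, limma). Its direction was higher under each scaling, and it passed after median-of-ratios scaling (0.67, adjusted p = 0.0439), after quantile normalization (0.80, adjusted p = 0.00983) and without clone 1.2 library 3 (adjusted p = 0.0431). In A375, BCL2 ran from 0.443 to 5.65 TPM over the 18 libraries and no clone passed.

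**Figure D3:**
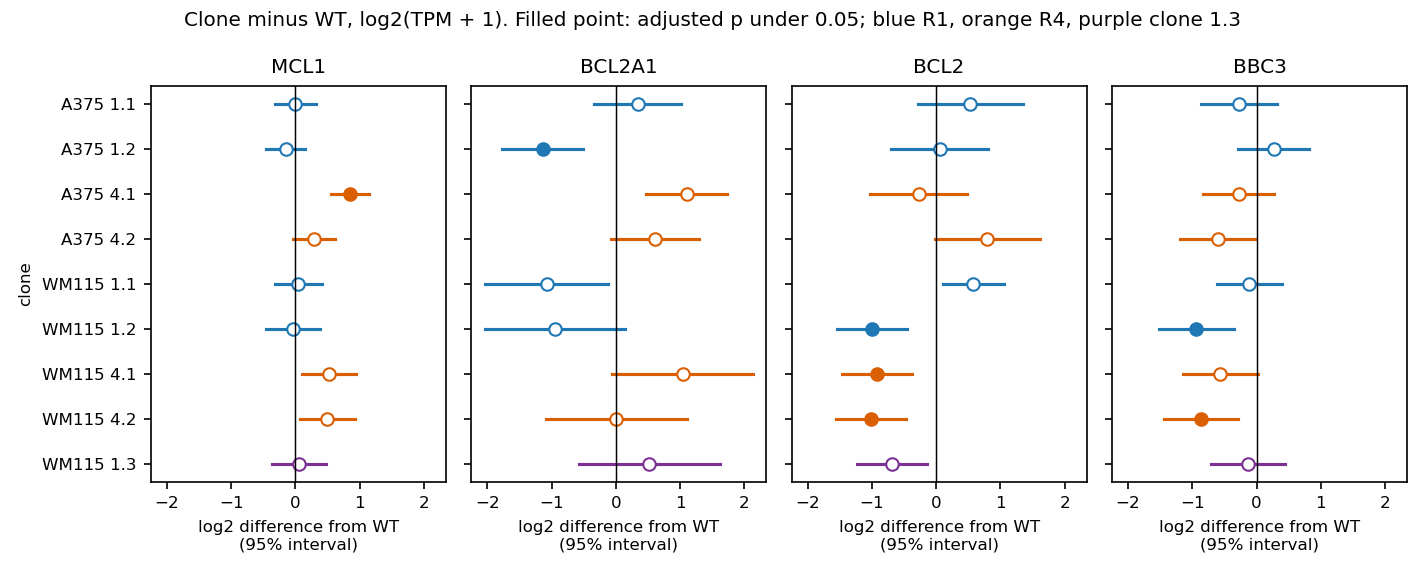
Log2 difference from WT with its 95% interval for MCL1, BCL2A1, BCL2 and BBC3 (panels) in each clone (rows), on log2(TPM + 1). Filled points have an adjusted p under 0.05 in the fits without a replicate block. The interval of MCL1 in A375 clone 4.1 runs from 0.55 to 1.15, and the intervals of BCL2 in WM115 clones 1.2, 4.1, 4.2 and 1.3 all lie below 0.

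BCL2L1, which with MCL1 is the pro-survival gene most used by solid tumours (chromosome 20, 31664452 to 31723989, minus strand), was higher in A375 clone 1.2. That clone held 50.7, 72.3, 50.9 and 56.8 TPM and WT held 34.0, 19.7, 23.8 and 47.8 TPM, with no overlap. The difference was 0.92 (SE 0.27, 95% interval 0.35 to 1.497, adjusted p = 0.0425, limma). This call was near the threshold and was lost when any one of 10 libraries was left out: WT 1, 2 or 3, clone 1.2 library 1, 2, 3 or 4, clone 1.1 library 2, clone 4.1 library 1 or clone 4.2 library 2 (0.74 to 0.99, adjusted p = 0.0528 to 0.137). The call was also lost with a mean of at least 5 TPM (adjusted p = 0.0523), with no filter (0.0791) and in a fit of only these groups (0.0622). With the replicate block the adjusted p was 0.175, and within the larger mitochondrial set it was 0.592. Of 29 alternatives, 13 kept the call. The difference was positive in each. The antisense gene ABALON overlaps BCL2L1 and stood at 0.877 to 5.02 TPM in A375, and since no strand-marking step is described, reads of the pair may not be separable. No WM115 clone passed, with differences from -0.20 to 0.29.

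BCL2L2 (chromosome 14, 23298790 to 23311759, plus strand) was lower in both WM115 R1 clones. WT held 31.5, 29.05, 30.6 and 41.8 TPM, clone 1.1 held 22.7, 23.3, 19.9, 24.6 and 27.8 TPM, and clone 1.2 held 23.5, 26.8 and 20.7 TPM. Both clones lay wholly below WT, at -0.47 (SE 0.13, adjusted p = 0.0163) and -0.47 (SE 0.15, adjusted p = 0.0317) by limma. The R4 clones held 23.3 to 29.3 and 23.2 to 26.6 TPM, with differences of -0.31 and -0.39 and adjusted p of 0.141 and 0.0667.

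The call of BCL2L2 in clone 1.1 was lost after median-of-ratios scaling (-0.35, adjusted p = 0.0796), without WT library 4 (-0.35, adjusted p = 0.0704) and with the mitochondrial set as a term (-0.34, adjusted p = 0.106). In clone 1.2 it was lost without WT library 1 or 4 or without clone library 1 or 3 (-0.49 to -0.35, adjusted p = 0.0507 to 0.183). Reads of BCL2L2 are shared with BCL2L2-PABPN1, a read-through gene on the same strand at 22.9 ± 2.502 TPM in WM115 WT (SD, n = 4), 16.8 ± 2.91 TPM in clone 1.1 (n = 5) and 20.9 ± 4.86 TPM in clone 1.2 (n = 3), so the split between them is uncertain. In A375, BCL2L2 stayed between 9.51 and 20.9 TPM with no call.

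Summed over the 5 pro-survival genes, A375 WT held 227 ± 44.4 TPM (SD, n = 4) and clone 4.1 held 369 ± 19.96 TPM (n = 4). The libraries of clone 4.1 ran from 343 to 391 TPM and those of WT from 169 to 277 TPM. The other A375 clones had means of 244, 233 and 284 TPM. In WM115, WT held 215 ± 24.7 TPM (n = 4) and the clones had means of 202 (1.1), 206 (1.2), 281 (4.1), 259 (4.2) and 213 TPM (1.3). These sums are mostly MCL1, which made up 78.5 ± 2.87% of them in A375 WT and 61.8 ± 5.81% in WM115 WT (n = 4 each). Its share was 86.0% in A375 clone 4.1 and 67.8% in A375 clone 1.2, where BCL2L1 made up 24.7 ± 3.79% (n = 4) against 13.5 ± 3.27% in WT (n = 4). The pro-survival sum was 7.04 ± 2.07 times the sum of the 4 BH3-only genes in A375 WT and 12.2 ± 1.33 times in clone 4.1 (n = 4 each). It was 4.48 ± 1.36 times in WM115 WT (n = 4). These sums and shares were not tested.

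**Figure D4:**
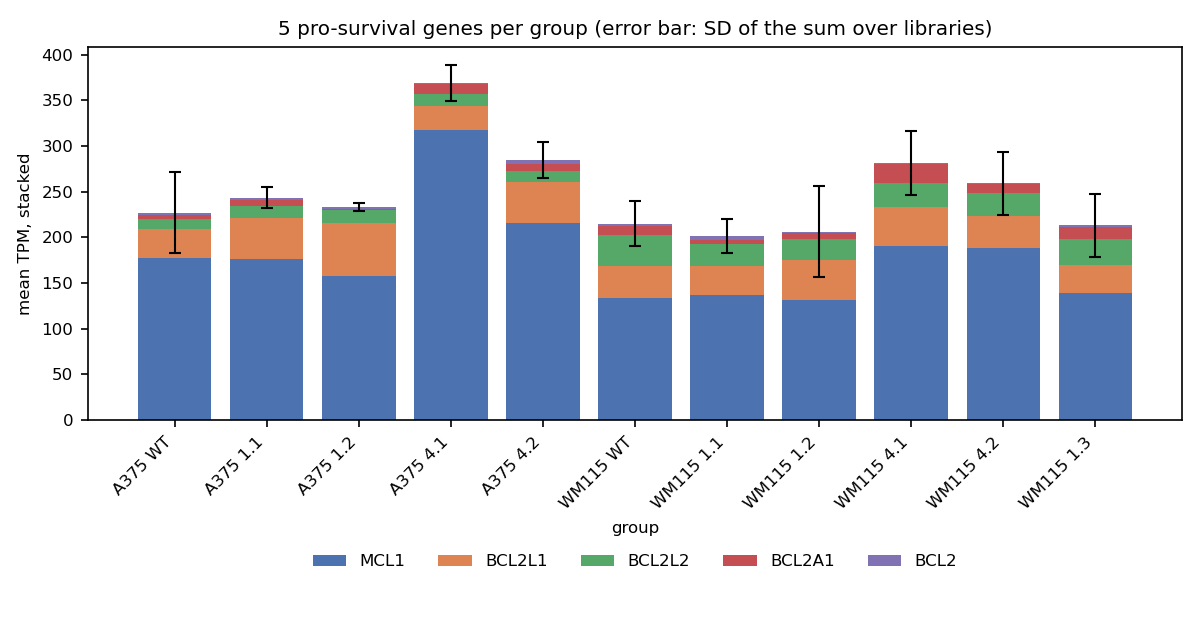
Mean TPM of the 5 pro-survival genes stacked for each group, with the SD of their sum over libraries as error bar. MCL1 is the largest block in every group, and the stack is tallest in A375 clone 4.1, at 369 TPM.

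Among the BH3-only genes, BBC3 (chromosome 19, 47220822 to 47232766, minus strand) was lower in 2 WM115 clones. WT held 34.8, 27.7, 16.8 and 28.7 TPM. R1 clone 1.2 held 13.3, 15.4 and 11.1 TPM, all below WT, at -0.94 (SE 0.28, 95% interval -1.51 to -0.36, adjusted p = 0.022, limma). R4 clone 4.2 held 16.8, 13.3 and 12.1 TPM, and its first library reached the lowest of WT, at -0.86 (SE 0.28, -1.44 to -0.28, adjusted p = 0.0338, limma).

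BBC3 lost the call in clone 1.2 without WT library 1 or 2 or clone library 3 (-0.91 to -0.80, adjusted p = 0.0507 to 0.127). In clone 4.2 it was lost without WT library 1, 2 or 4 or clone library 2 or 3 (-0.83 to -0.73, adjusted p = 0.0721 to 0.105), and after median-of-ratios scaling (-0.75, adjusted p = 0.0606). Clone 4.1 held 15.5, 15.7 and 21.5 TPM (-0.56, adjusted p = 0.146), and clones 1.1 and 1.3 overlapped with WT. In A375, BBC3 ran from 4.54 to 16.4 TPM. Clone 4.2 lay below WT there, with 5.67, 4.54 and 6.05 TPM against 7.29, 16.4, 7.17 and 6.42 TPM, but its difference of -0.60 had an adjusted p of 0.641.

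BMF, which senses loss of attachment (chromosome 15, 40087890 to 40108892, minus strand), was higher in WM115 clone 1.2. The libraries there held 7.95, 8.63 and 28.8 TPM, all above the 6.63, 4.83, 2.58 and 4.995 TPM of WT, at 1.3004 (SE 0.39, 95% interval 0.47 to 2.13, adjusted p = 0.0253, limma). Library 3 carried much of it: without that library the difference was 0.74 (adjusted p = 0.237). Without WT library 3 it was 1.09 (adjusted p = 0.0645). In A375, clone 4.2 held 1.38, 0.481 and 0.821 TPM, all below the WT range of 1.53 to 5.75 TPM, at -0.89 (adjusted p = 0.627).

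PMAIP1, whose product binds MCL1 (chromosome 18, 59899948 to 59904306, plus strand), passed in no clone against WT. WM115 WT held 11.7, 11.4, 14.6 and 11.9 TPM. Clone 1.1 lay below it, with 6.28, 10.7, 10.6, 10.5 and 6.25 TPM (-0.48, SE 0.22, adjusted p = 0.134), and clone 4.2 lay above it, with 15.8, 21.6 and 16.4 TPM (0.49, SE 0.25, adjusted p = 0.18). In A375 it ran from 11.3 to 38.0 TPM.

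BCL2L11 (chromosome 2, 111119378 to 111168447, plus strand), the BH3-only gene that ERK signalling holds down, also passed in no clone. In A375 it ran from 2.80 to 6.62 TPM. WM115 WT held 6.51, 7.59, 4.63 and 3.91 TPM and clone 1.2 held 9.69, 5.47 and 14.9 TPM, at 0.67 (SE 0.26, adjusted p = 0.0708, limma). Without the second library of clone 1.2 the difference was 1.003 (adjusted p = 0.009). MIR4435-2HG, which overlaps it on the opposite strand, was measured at 19.3 to 81.6 TPM, above BCL2L11 in level, so its values are uncertain.

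BAX (chromosome 19, 48954815 to 48961798, plus strand) had no call against WT without a block. In A375, WT held 141, 88.5, 114 and 177 TPM and clone 4.1 held 95.03, 90.3, 62.5 and 107 TPM, at -0.53 (SE 0.22, 95% interval -0.99 to -0.06, adjusted p = 0.374, limma). With the replicate number as a block, which fits this comparison, the adjusted p was 0.0379. In WM115 clone 4.2, BAX was 147, 118 and 141 TPM against 173, 183, 185 and 144 TPM in WT, at -0.34 (SE 0.12, adjusted p = 0.0623). The other WM115 clones held 119 to 202 TPM.

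Clones that lack the same region were then compared with each other, since a difference between them needs its own test. In A375, 1 of 10 members differed between R1 clones 1.2 and 1.1, where 13.2% of all genes were called. None differed between R4 clones 4.2 and 4.1, where 3.95% were called. Between these R4 clones, 4 members had an unadjusted p under 0.05, beside 3722 of 16692 genes. BCL2A1 was lower in clone 1.2 than in clone 1.1 by 1.47 on the log2 scale, a difference of -1.47 (SE 0.32, 95% interval -2.16 to -0.79, adjusted p = 0.00653, limma). It was lost without clone 1.1 library 2 (-1.21, adjusted p = 0.052). MCL1 was 0.56 lower in clone 4.2 than in clone 4.1, a difference of -0.56 (SE 0.15, adjusted p = 0.0505), and BAX higher by 0.81 (SE 0.24, adjusted p = 0.0674), both just outside the threshold. MCL1 passed under 8 alternatives, among them median-of-ratios scaling (-0.64, adjusted p = 0.0253), quantile normalization (-0.67, adjusted p = 0.0169) and leaving out any of WT libraries 2 and 4, clone 1.1 libraries 1 and 3 and clone 4.2 library 1 (adjusted p = 0.0197 to 0.0424). BAX passed without WT library 2 or 4 or clone 4.1 library 4 (adjusted p = 0.0407 to 0.0485). Libraries of BCL2, BCL2L1, MCL1 and BAX did not overlap between these R4 clones, 4 of 10 members beside 17.3% of all genes. Between the R1 clones it was 2 of 10 beside 22.9%.

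In WM115, 4 of 10 members differed between R1 clones 1.2 and 1.1, where 35.5% of all genes were called. BCL2 (-1.58, SE 0.25, adjusted p = 0.000133) and BBC3 (-0.82, SE 0.26, adjusted p = 0.0212) were lower in clone 1.2. PMAIP1 (0.95, SE 0.24, adjusted p = 0.00551) and BMF (1.48, SE 0.38, adjusted p = 0.0054) were higher there, all by limma. These 4 genes were also the members whose libraries did not overlap, beside 33.3% of all genes. Without library 3 of clone 1.2, BMF (0.92, adjusted p = 0.0725) and BBC3 (-0.71, adjusted p = 0.114) lost their calls, and BCL2A1 gained one (1.11, adjusted p = 0.0289). With the mitochondrial set as a term, BBC3 had an adjusted p of 0.0517. BCL2 kept its call when any single library was left out.

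No member differed between WM115 R4 clones 4.2 and 4.1, where 6.75% of all genes were called. There, 1 member had an unadjusted p under 0.05, beside 3620 of 16997 genes. BCL2A1 and BAX were the 2 members without overlap, beside 27.7% of all genes. Their differences were -1.03 (SE 0.56, adjusted p = 0.307) and -0.42 (SE 0.13, adjusted p = 0.0684). BCL2A1 passed at the same difference in a fit of only these groups (adjusted p = 0.0147). BAX passed after median-of-ratios scaling (-0.43, adjusted p = 0.0396) and without clone 1.3 library 2 or 3 (adjusted p = 0.0441 and 0.0459). Between clones of one region, calls thus numbered 1 (R1) and 0 (R4) of 10 in A375, beside 13.2% and 3.95% of all genes. In WM115 they numbered 4 (R1) and 0 (R4), beside 35.5% and 6.75%.

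To compare the regions, the 8 clones 1.1, 1.2, 4.1 and 4.2 of both lines entered as 1 value each, with the line as a term. No member passed, and 0 of all 15287 genes did (0%), while 658 genes had an unadjusted p under 0.05. The 2 members with an unadjusted p under 0.05 were MCL1 and BCL2A1. MCL1 differed by 0.57 (R4 minus R1, SE 0.14, 95% interval 0.25 to 0.90, adjusted p = 0.996, limma) and BCL2A1 by 1.40 (SE 0.35, 0.59 to 2.20, adjusted p = 0.996, limma). With libraries in place of clones as the unit, which takes repeats of a clone as independent, both passed (adjusted p = 0.000455 and 0.00221).

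The difference of a region's effect between the lines was tested the same way over group means. For R1 and for R4, 0% of all genes passed, no member had an unadjusted p under 0.05, and adjusted p was 1 for each. Among all 15287 genes, 205 (R1) and 387 (R4) had an unadjusted p under 0.05. Wide intervals stood behind this, as for BCL2 in R4 clones, where the effect in WM115 was lower than in A375 by 1.23, a value of -1.23 with an interval of -3.47 to 1.01. The calls of BCL2 in WM115 and not in A375 are therefore not shown to differ between the lines.

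Transcript levels showed which forms carried these genes, as a description. The transcript of MCL1 that encodes the long, pro-survival form of 350 codons made up 77.2% to 88.04% of MCL1 by group mean, and the transcript of 271 codons 9.8% to 20.5%. In A375 the share of the long form was 80.3 ± 3.86% in WT and 80.2 ± 4.17% in clone 4.1 (SD, n = 4 each), a difference under the spread of either group. The leading transcript of BCL2L1, of 233 codons, made up 63.9% to 71.7% of that gene. The leading transcript of BCL2A1, of 175 codons, made up 97.0% to 100% of the gene in WM115 groups and 68.7% to 93.5% in A375 groups, where a transcript of 163 codons was the rest. One transcript led BCL2L2 with 92.3% to 98.3%, and another led PMAIP1, of 54 codons, with 95.6% to 99.4%. The shares of BCL2 are not given, since its transcripts stood near 1 TPM or under.

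Other genes of the pathway were read from lists. In A375, no gene of 4 lists passed in any clone: other BCL2 family members (9 tested), caspases and the apoptosome (13), inhibitors of apoptosis (7), and death receptors with their ligands and adaptors (8). Medians of these lists against WT lay between -0.11 and 0.28, beside medians over all genes of -0.02 to 0.07. Among regulators of the family (18 tested), MITF was lower in clones 1.1 (-1.31) and 4.2 (-0.96), and FOXO1, which induces BCL2L11 and BBC3, was lower in clone 1.2 (-1.15, adjusted p = 0.00145, limma). Of 15 p53 target genes, CDKN1A was higher in clone 1.2 (0.70, adjusted p = 0.0334) and no other passed. NF-kB target genes (7 tested) had no call in any clone, with medians of -0.03, 0.25, 0.51 and 0.14 in clones 1.1, 1.2, 4.1 and 4.2.

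In WM115, the share of all genes called higher was 6.30%, 11.8%, 8.59% and 6.71% in clones 1.1, 1.2, 4.1 and 4.2, and the share called lower was 15.7%, 10.8%, 15.6% and 13.6%. Other family members moved in both directions. BOK, an effector related to BAX, was higher in clones 1.1, 1.2, 4.1 and 4.2, by 0.54, 0.84, 1.197 and 0.93, and BNIP3L, a mitophagy receptor, in clones 1.1, 1.2 and 4.2, by 1.204, 1.07 and 1.13. BCL2L13 was lower in clone 1.2 (-0.73) and the BH3-only gene HRK in clone 4.1 (-1.07). Counts of the 9 tested were 2 higher and 0 lower in clone 1.1, 3 and 3 in 1.2, 2 and 2 in 4.1, and 2 and 1 in 4.2. Of 13 caspase, apoptosome and release genes, 0 were higher and 3, 4 and 4 lower in clones 1.1, 4.1 and 4.2, and 3 higher and 2 lower in clone 1.2. AIFM1, released from mitochondria in death, was lower in clones 1.2, 4.1 and 4.2 (-0.64, -0.78 and -1.17), and ENDOG in 4.1 and 4.2 (-0.98 and -0.92). CASP10, an initiator caspase, was lower in clones 1.1 and 4.2 (-1.11 and -0.85), and CASP6, an executioner, higher in clone 1.2 (0.92).

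Inhibitors of apoptosis (8 tested in WM115) split by clone. Counts were 2 higher and 2 lower in clone 1.1, 0 and 0 in 1.2, 2 and 0 in 4.1, and 1 and 1 in 4.2. BIRC3, an NF-kB target, was higher in clone 4.1 (1.62, adjusted p = 0.00652) and lower in clone 1.1 (-1.37, adjusted p = 0.00854). BIRC2 was higher in clones 4.1 and 4.2 (0.83 and 0.67). In clone 1.1, BIRC7, the melanoma inhibitor ML-IAP (2.31), and BIRC5 (0.99) were higher. Of the death receptor genes (9 tested), 0 were higher and 1 lower in clone 1.1, 2 and 1 in 1.2, 3 and 0 in 4.1, and 2 and 2 in 4.2. TNFRSF1A was higher in clones 1.2, 4.1 and 4.2 (0.996, 0.73 and 0.70), and TNFRSF10D in clones 4.1 and 4.2 (0.99 and 0.75). TNFRSF10A, a TRAIL receptor, was lower in clones 1.1, 1.2 and 4.2 (-0.52, -0.86 and -0.62).

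Of 9 NF-kB target genes tested in WM115, BIRC3 among them, 8 were lower in clone 1.1, with a median of -1.04, and 8 were higher in clone 4.1, with a median of 1.499, beside medians over all genes of -0.12 and -0.10. CXCL8, a cytokine of this list, was 3.43 higher in clone 4.1. In clone 1.2, 2 of 9 were lower, and in clone 4.2 none passed. Of 15 p53 target genes, 6 were lower in clone 1.2 and 5 in clone 4.2. Clone 4.1 had 2 higher and 1 lower, and clone 1.1 had 1 higher and 2 lower. Whether p53 had a part in the level of BBC3 was not tested. MDM2 was lower in clone 1.2 (-1.03) and higher in clone 4.1 (0.72), and GDF15 was lower in clones 1.1, 1.2, 4.1 and 4.2 (-1.48, -1.82, -2.18 and -3.53). Of 9 melanocytic genes, 2, 5, 7 and 6 were lower in clones 1.1, 1.2, 4.1 and 4.2, with medians of -0.81, -2.01, -3.20 and -2.80. FOXO1 was lower in clones 1.2 and 4.2 (-1.18 and -1.09). In clone 1.3 no gene of any list passed.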

How the data were processed

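Libraries were made from total RNA with oligo-dT selection and random-hexamer priming, and RNA of a RIN over 8 was used, per the labels' protocols. The deposited tables hold TPM per gene and per transcript, made by the authors with DRAGEN on GRCh38, per the submitters' processing notes. Strand use, counting settings and filters are not given in the sources used here. Of the columns in the tables, 6 match no sample and were not used. Repeated lines (200 of 60871 in the gene table) were dropped.

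Genes with at least 1 TPM in at least 3 libraries of a fit were tested with limma 3.58.1 in R 4.3.3 on log2(TPM + 1). Each line was fitted with 1 coefficient per group, empirical Bayes with a variance trend and two-sided tests. Benjamini-Hochberg adjustment ran over all genes tested, 16692 in A375, 16997 in WM115 and 16126 between the WT groups, with a threshold of 0.05. Regions were compared on clone means. The scripts were tested on simulated data. Alternatives covered the pseudocount, the filter, scaling, the variance trend, the replicate block, the groups fitted, libraries left out and sets of mitochondrial share.

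All 10 members are described. From each list, up to 4 genes per line with the largest differences past the threshold were eligible to be named, and for members past the threshold in a clone the 3 genes most alike, of which 1 is not reported here. All 8 lists were matched by symbol, with 1 older or newer symbol of a pair absent from the table. Members and lists were chosen with earlier results of these data known. Replicate numbers of the titles were checked as pairs. In A375 clone 4.1 against WT, all 4 same-numbered pairs had correlated deviations (r = 0.33 to 0.78), while no other comparison had all pairs over 0.1.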

Additional observations from a re-analysis of the deposited data

Results flagged for a closer look

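In groups of 4 or 5 libraries, the level of each member was checked for a library whose gap to the nearest other was large beside the range of its group, on log2(TPM + 1). Among 50 groups of values, 2 had such a library, and chance gives about 1 in 20. BBC3 in A375 WT library 2 stood at 16.4 TPM, and the other 3 WT libraries at 6.42 to 7.29 TPM, a gap of 0.87 of the range on that log scale. That library also held the highest BMF of the line, 5.75 TPM. BCL2L1 in WM115 WT library 3 stood at 45.99 TPM, and the others at 31.0 to 32.7 TPM, a gap of 0.864 of the range on that scale. Both are the highest values of their groups.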

How the results depend on the processing

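Over 19 differences past the threshold and 623 alternatives, 539 kept direction and call, 84 lost the call and 0 changed sign, and 3 differences kept the call throughout: BCL2 between the WM115 R1 clones, and BCL2L2 and BBC3 between the WT lines. Of 151 differences short of the threshold, 28 passed under at least 1 alternative. For A375 clones against WT (3 calls of 40), fitting only the compared groups left 1, the larger set of mitochondrial share 0 and a minimum difference of 1 left 1. For WM115 clones (8 of 50), a mean of at least 5 TPM, which drops BCL2, left 5, the larger mitochondrial set 1 of 40 and the minimum difference 2. For clones of one region (5 of 40), the larger mitochondrial set left 1 of 30 and the minimum difference 3. In that smaller set differences kept their direction, and the fits hold fewer samples. With libraries as the unit, the region comparison gave 2 calls and the line difference 1, in place of 0 each. The share of all genes called was not counted under the alternatives of this section. The counts therefore describe how the calls of members held, and show no excess over all genes.

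Leaving out 1 library gave 1 to 3 calls in A375, 5 to 12 in WM115, 2 to 6 between WT lines and 4 to 7 between clones of one region. The 6 came without A375 WT library 2 and 5 without library 4. The 12 came without WM115 clone 1.3 library 3, and 11 without WT library 3. Calls fell to 1 without A375 WT library 3 or clone 1.2 library 1 or 4, and to 5 without WM115 WT library 1 or 4. Leaving out 1 clone gave 0 calls for regions and for lines. Without A375 WT library 2 and clone 4.1 library 2 together, a choice made after seeing the data, 2 calls stood.

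With the replicate block, calls numbered 4 in A375, 5 in WM115, 2 between WT lines and 3 of 39 between clones of one region. Outside A375 clone 4.1 against WT the libraries share only a number. No paired analysis was possible for regions and lines because clones were the unit.

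Median-of-ratios scaling moved the median of all genes in WM115 clones 1.1, 4.1 and 4.2 from -0.12, -0.10 and -0.10 to -0.02, 0.00 and 0.00. Calls there were then 50.04%, 55.3% and 51.0% higher, in place of 28.7%, 35.5% and 33.1%. Between R1 clones the higher share went from 68.6% to 55.5% in A375 and from 64.9% to 51.7% in WM115, and under quantile normalization from 63.8% to 47.2% in A375 clone 1.2 against WT. Depth is unknown, so the counting error of low genes such as BCL2 and BMF cannot be given.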

Other observations

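The genes whose levels ran most alike with a member were ranked among 15286 genes tested in both lines, by Pearson r of log2(TPM + 1) over the 39 libraries after subtracting the mean of each line. The libraries of a clone share that clone, so r describes these libraries and carries no p. BCL2L1 ran most like KRT80 (r = 0.93), MB21D2 (0.93) and AMOTL2 (0.92). MCL1 ran most like CHSY1 (0.85), IFNGR2 (0.83) and LINCR-0003 (0.81). BCL2A1 ran most like COL19A1 (0.82), SLC35F2 (0.77) and SELENOS (0.76). BCL2 ran most like MAP3K3 (0.87), PINX1 (0.87) and PRMT7 (0.85), and BCL2L2 most like MTMR10 (0.71), PLEKHH1 (0.70) and MAFK (0.69). Among BH3-only genes, BBC3 ran most like OSBPL1A (0.83) and IDH3G (0.83), and BMF most like SMARCD3 (0.86), AC027307.2 (0.84) and TPCN1 (0.83).

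BCL2A1 and BMF lie on chromosome 15. In WM115 clone 1.1, the median difference from WT over the 575 genes tested on that chromosome was -0.39, beside -0.12 over all genes, and BCL2A1 stood at -1.08 and BMF at -0.18. In A375 clone 4.1 the chromosome 15 median over 572 genes was 0.18, beside -0.02 over all genes, and BCL2A1 stood at 1.11. BMF had a lower mean there than in WT, 2.245 ± 1.56 against 2.76 ± 2.01 TPM (SD, n = 4 each). Chromosome medians of the other clones are not given here. The part of the chromosome in these differences was not tested.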
